A study of Mus musculus with 23 samples.

Results

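10 genes of melanoma phenotype switching and of the epithelial-mesenchymal transition (EMT) were followed here, chosen by their symbols among the 56748 genes of the count table. These 10 genes are Axl, Ngfr, Wnt5a, Sox9, Zeb1, Zeb2, Snai2, Twist1, Cdh1 and Cdh2, and all 10 were found. The rule was the symbol alone. RNA was sequenced from 23 subcutaneous tumors that B16-F1 cells, a pigmented mouse melanoma line, had formed in DBA/2J mice aged 6 to 8 weeks, and the counts were read at the 3′ end of messenger RNA. By the intraperitoneal route, CONTROL_IP mice received saline, PTX_IP mice pentoxifylline (a methylxanthine) at 60 mg/kg, NCTD_IP mice norcantharidin (a demethylated cantharidin) at 3 mg/kg and MIX_IP mice both drugs at these doses, with 2 tumors in each group. By the intratumoral route, CONTROL_IT mice received DMSO (4 tumors), and PTX_IT (3 tumors), NCTD_IT (4 tumors) and MIX_IT (4 tumors) mice received the same doses. In the labels the batch is the route, and the control vehicles also differ, so route, vehicle and batch cannot be told apart. B16 cells come from another mouse strain than the DBA/2J host, so every tumor was an allograft of 1 cell line, and all RNA of a tumor, from melanoma and host cells alike, was counted together.

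Melanoma cells move between a differentiated, pigment-producing state that depends on the transcription factor MITF and an invasive or dedifferentiated state in which MITF is low and receptors such as AXL and NGFR are high. The factors of this switch overlap with those of EMT, the program by which epithelial cells lose E-cadherin and gain N-cadherin. In melanoma the program is shifted: ZEB2 and SNAI2 (SLUG) belong to the differentiated state, and ZEB1 and TWIST1 to the invasive state. Fibroblasts, macrophages and Schwann cells of the host also express several of these genes.

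The 7 genes that mark pigmented melanoma cells were high in every tumor, from 250.2 CPM (counts relative to the library total, scaled by TMM) for Sox10 at its lowest to 20131 CPM for Dct at its highest. Total counts ran from 2861578 to 6702374 per tumor, and the floor of 3 counts, which covers counting error only, lay between 0.449 and 1.04 CPM. MIX_IT replicate 23 stood apart, with a sum of 8862 CPM over 10 fibroblast markers against 530.4 to 1954 in the other MIX_IT tumors and 118 to 395 in CONTROL_IT, and a change in MIX_IT that it turned, or moved by over 1.5 times, is given with and without it. Xist, the RNA of the inactive X chromosome, lay between 1.28 and 13.6 CPM in all PTX_IT and NCTD_IT tumors. It lay between 0 and 0.566 CPM in all CONTROL_IT and MIX_IT tumors. For the single drugs of the IT route, against CONTROL_IT or MIX_IT, the sex of the host and the treatment thus cannot be told apart. A fit with Xist as a covariate cannot decide between them there, because Xist nearly follows the groups. By the IP route Xist was 8.26 CPM in CONTROL_IP replicate 2. It was 0 in CONTROL_IP replicate 1 and in every treated IP tumor, so the control of that route appears to mix host sexes. In bulk RNA, fewer cells of a type and less RNA per cell cannot be told apart either.

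The 250 bases before the transcription start are shown for Axl and Twist1, the genes of the 10 with the widest spread between tumors of the same group. They were read from the RefSeq promoters of GRCm38.p6, which held 4 of the 10 genes (Axl, Ngfr, Zeb2 and Twist1), and capitals mark motifs found on either strand. The Axl window lies on the minus strand at chr7:25788734-25788983 and the Twist1 window on the plus strand at chr12:33957421-33957670.
Axl: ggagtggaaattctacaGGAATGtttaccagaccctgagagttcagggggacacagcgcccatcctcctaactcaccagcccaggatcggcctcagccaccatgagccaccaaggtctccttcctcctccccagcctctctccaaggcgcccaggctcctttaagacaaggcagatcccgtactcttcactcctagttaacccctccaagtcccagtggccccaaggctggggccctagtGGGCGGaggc
Twist1: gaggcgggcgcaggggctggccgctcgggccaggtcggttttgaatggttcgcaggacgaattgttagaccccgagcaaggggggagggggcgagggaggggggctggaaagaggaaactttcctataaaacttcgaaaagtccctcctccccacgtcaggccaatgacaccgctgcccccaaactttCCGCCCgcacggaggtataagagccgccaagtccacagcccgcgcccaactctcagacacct
In the Axl window the capitals mark 1 TEAD motif (GGAATG) and 1 GC box (GGGCGG), and in the Twist1 window 1 GC box read on the other strand. Of 32851 promoter windows of this length, 12.6% held the TEAD motif and 32.7% the GC box. The AP-1 motif (TGANTCA), the E-box of SNAI and ZEB factors (CAGGTG) and the E-box of MITF (CACGTG) were in neither window, and they were in 6.75%, 17.2% and 6.02% of all windows.

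None of the 10 genes passed the test (edgeR, adjusted p below 0.05) in any comparison with the control of its route. 8 of the genes had enough counts to be tested in each route, all but Ngfr and Twist1 by the IP route and all but Ngfr and Wnt5a by the IT route. By the IP route the 3 comparisons called 0% of the 12424 genes tested for NCTD_IP, 0% for PTX_IP and 0% for MIX_IP, so that no gene at all was called. By the IT route NCTD_IT called 1.37% of 12480 genes, PTX_IT 0% and MIX_IT 0%. At an unadjusted p below 0.05 there was 1 of the 10 genes, Twist1 in MIX_IT, beside 13% of all genes there. The other comparisons held 0 of the genes at this level beside 3.59% of all genes in NCTD_IP, 5.30% in PTX_IP, 2.94% in MIX_IP, 21.6% in NCTD_IT and 6.35% in PTX_IT. DESeq2 also called 0 of the 10 genes in each of the 6 comparisons, but in MIX_IT it gave no adjusted p for 5 of them (Ngfr, Zeb1, Twist1, Wnt5a and Cdh1), and for Twist1 no p at all, so these could not be called there. In NCTD_IT, PTX_IT and MIX_IP it gave none for Ngfr. Over the 8 genes tested the median log2 fold change was 0.42 in NCTD_IT, 0.32 in PTX_IT and 0.36 in MIX_IT, beside 0.03, 0.02 and 0.01 over all genes, and it was −0.27, −0.25 and −0.19 in NCTD_IP, PTX_IP and MIX_IP.

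**Figure D1:**
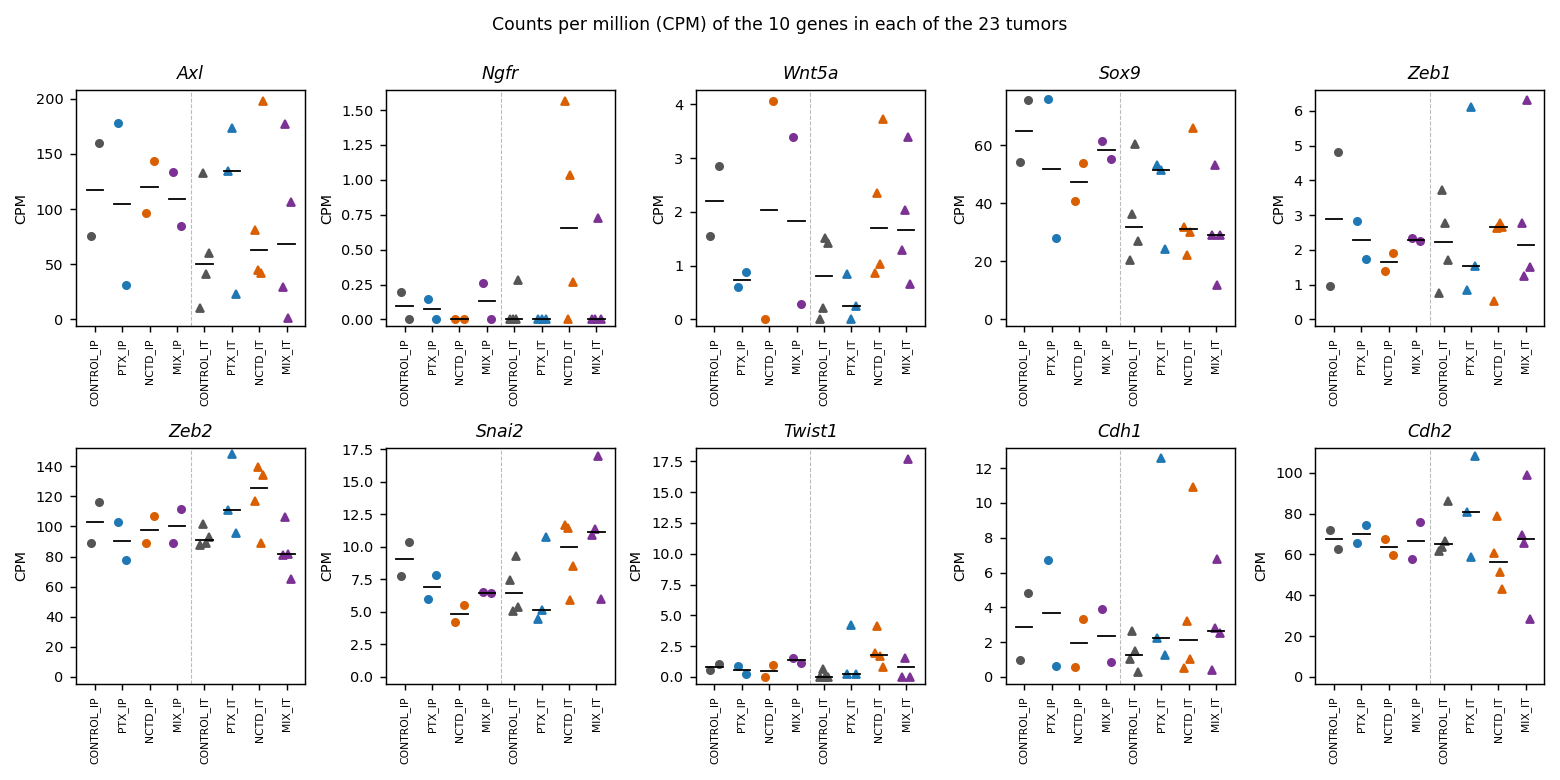
CPM of each of the 10 genes (vertical axes, linear) in the 8 groups, with 1 point per tumor, circles for the IP and triangles for the IT route, and a black line at the group median. Tumors of the same group are widely spread for Axl, from 1.70 to 177 CPM in MIX_IT, and the Twist1 value of 17.7 CPM belongs to MIX_IT replicate 23.

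The receptors and the ligand of the invasive state come first. Axl (chromosome 7, 25456698 to 25488130, minus strand, GRCm39) encodes a receptor tyrosine kinase for GAS6 that marks invasive, MITF-low melanoma and is also made by macrophages and dendritic cells. In CONTROL_IT its level was 10.0, 132, 41.1 and 60.3 CPM, and in MIX_IT it was 29.8, 177, 1.70 and 107 CPM. NCTD_IT tumors held 80.8, 44.9, 42.5 and 198 CPM, and PTX_IT tumors 135, 174 and 23.1 CPM. Each IT group thus had both high and low tumors, and every treated group overlapped with the control. The IP tumors ran from 31.2 to 178 CPM, both of these in PTX_IP, while CONTROL_IP held 75.1 and 159, NCTD_IP 96.6 and 143, and MIX_IP 134 and 85.0 CPM. The log2 fold changes were 0.57 (SE 0.90) in NCTD_IT, 0.84 (SE 0.97) in PTX_IT and 0.36 (SE 0.90) in MIX_IT, with adjusted p of 0.750, 0.898 and 0.902. The direction in NCTD_IT was not stable, since the change was −0.11 without NCTD_IT replicate 20. With Xist added to the model the change was −3.37 in NCTD_IT (adjusted p = 0.834) and −2.83 in PTX_IT (adjusted p = 0.975). Xist nearly follows these groups, so that fit cannot settle the direction. The 95% interval for MIX_IT, from −1.55 to 2.26, was wide, and a change within it was not detectable with these tumors. The difference in mean log2 CPM between MIX_IT and CONTROL_IT had the other sign, at −0.38, and without MIX_IT replicate 23 the fitted change was 0.77. By the IP route the fold changes of Axl lay between −0.17 and 0.03 on the log2 scale with standard errors of 0.65. Without CONTROL_IP replicate 2, the IP tumor with Xist, they were 0.68 in NCTD_IP, 0.47 in PTX_IP and 0.55 in MIX_IP.

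Axl had the widest spread within groups of the 10 genes. Its highest tumor was 116 times its lowest, and the SD of its log2 CPM within groups was 1.70, above that of 99.4% of the 13395 genes of the 23-tumor model and above that of all 500 genes nearest to it in mean level. Twist1 and Cdh1, genes of lower level, came next with SDs of 1.39 and 1.36, above those of 98.3% and 98.0% of the genes. The SD within groups of Cdh2, a gene of about the same mean log2 CPM as Axl, was 0.43. Differences between the 8 groups made up 17.7% of the variation of Axl. This share is not corrected for the number of groups. Means of so few tumors differ without any effect of treatment, so it does not measure a drug effect. The genes of the table whose level followed Axl most closely over the 23 tumors were H2-DMa (Pearson r = 0.98, Spearman rho = 0.95) and H2-Eb1 (r = 0.97, rho = 0.98), which encode MHC class II proteins of antigen-presenting cells. For H2-DMa r was 0.90 over the 8 IP tumors, 0.99 over the 15 IT tumors and 0.94 without the 2 tumors farthest from the median of Axl. The summed level of 7 T and NK cell markers also followed Axl (r = 0.91, rho = 0.93, and 0.93 without those 2 tumors), as did that of 8 macrophage markers (r = 0.72, rho = 0.88, and 0.89 without them). The 6 Schwann cell markers followed it about as closely as the macrophage markers (r = 0.74, rho = 0.84, and 0.82 without them), so the relation was not confined to immune cell markers. The tumors with the least Axl, MIX_IT replicate 23 (1.70 CPM), CONTROL_IT replicate 9 (10.0 CPM) and PTX_IT replicate 16 (23.1 CPM), were those with the smallest T and NK cell marker sums, at 2.43, 1.54 and 6.16 CPM, against 289.9 CPM in NCTD_IT replicate 20, which had the most Axl. These correlations describe points that share a library and its scaling, and the part of host cells in the Axl level was not tested. Mitf, the counterpart of Axl in the switch, did not follow it in either direction (r = 0.13, rho = −0.04).

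**Figure D2:**
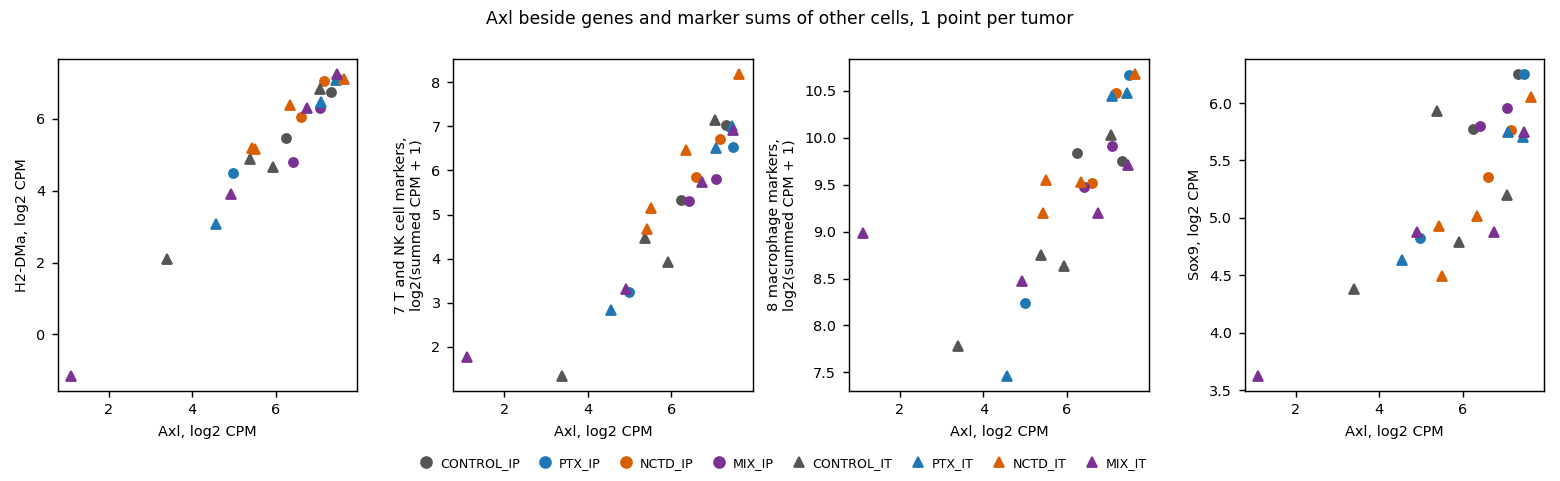
Log2 CPM of Axl (horizontal axes) against log2 CPM of H2-DMa, the log2 summed CPM of 7 T and NK cell markers and of 8 macrophage markers, and log2 CPM of Sox9, with 1 point per tumor, circles for IP and triangles for IT groups. The 23 tumors line up along H2-DMa (r = 0.98), with MIX_IT replicate 23 at the lower left.

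Ngfr (chromosome 11, 95459644 to 95478561, minus strand), the nerve growth factor receptor of neural crest-like melanoma cells, was at the floor. It had no count in 15 of the 23 tumors and fewer than 3 counts in 20 of them. The highest levels were 1.56 and 1.04 CPM in NCTD_IT and 0.728 CPM in MIX_IT replicate 23, which are 9, 3 and 3 counts. In CONTROL_IT Ngfr was 0 in 3 tumors and 0.283 CPM in the other, and in PTX_IT it was 0 in all 3, so a difference in Ngfr was not detectable at this depth.

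Wnt5a (chromosome 14, 28226707 to 28249405, plus strand) encodes the secreted ligand that drives invasion in MITF-low melanoma through Frizzled receptors, ROR2 and RYK. It was low throughout, between 0 and 4.06 CPM. In PTX_IP it was 0.599 and 0.874 CPM against 1.55 and 2.85 CPM in CONTROL_IP, 4 and 4 counts against 8 and 19, so that these groups did not overlap, with a log2 fold change of −1.58 (SE 1.37, adjusted p = 0.946). CONTROL_IT held 0, 0.219, 1.51 and 1.41 CPM, NCTD_IT 0.869, 2.35, 1.04 and 3.73, MIX_IT 1.28, 2.03, 3.40 and 0.666, and PTX_IT 0.836, 0 and 0.257 CPM. Each treated IT group overlapped with the control, and Wnt5a had too few counts for the IT model.

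Sox9 (chromosome 11, 112673050 to 112678586, plus strand), a neural crest factor that opposes SOX10 in the dedifferentiated state, was at 11.9 to 75.8 CPM. In NCTD_IP it was 40.6 and 54.0 CPM against 54.2 and 75.7 in CONTROL_IP, so that the groups lay just apart, with a log2 fold change of −0.45 (SE 0.40, adjusted p = 0.999). CONTROL_IT held 20.3, 36.4, 60.5 and 27.2 CPM, and MIX_IT 28.9, 53.2, 11.9 and 29.0 CPM. NCTD_IT tumors held 32.0, 22.03, 30.1 and 65.9 CPM and PTX_IT tumors 53.2, 51.6 and 24.4 CPM. These IT groups overlapped with one another, and their changes from the control ran from −0.24 to 0.24 on the log2 scale with adjusted p of 0.857 or more. The Sox9 change turned to 0.03 in MIX_IT without replicate 23 and to −0.36 in NCTD_IT without replicate 20, and with Xist in the model it was −1.16 in NCTD_IT and −0.83 in PTX_IT. Sox9 rose and sank with Axl over the tumors (r = 0.83, rho = 0.75, 0.72 without the 2 tumors farthest from the median of Axl, and 0.84 for deviations from the group means). Of all genes it was most like Slc25a30 (r = 0.92), a mitochondrial carrier, and Dtna (r = 0.90), which encodes dystrobrevin alpha. The summed Schwann cell markers followed it as well (r = 0.82, rho = 0.77), and so did the T and NK cell markers (r = 0.76, rho = 0.69) and the macrophage markers (r = 0.67, rho = 0.70). Their part in the Sox9 level was not tested.

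The ZEB factors are repressors of E-cadherin. Zeb1 (chromosome 18, 5591860 to 5775467, plus strand), of the invasive state, was low, at 0.522 to 6.31 CPM. In CONTROL_IT it was 0.772, 3.72, 2.77 and 1.70 CPM, in NCTD_IT 0.522, 2.64, 2.77 and 2.67, in MIX_IT 2.78, 1.25, 6.31 and 1.499, and in PTX_IT 0.836, 6.12 and 1.54 CPM. The 4 IT groups overlapped, and the highest level of all tumors was that of MIX_IT replicate 23. Differences between the 8 groups made up 3.78% of the variation of Zeb1, a share likewise not corrected for the number of groups. Its log2 fold changes by the IT route lay between −0.11 and 0.36 with standard errors of at least 0.75. Without MIX_IT replicate 23 the MIX_IT change was −0.32, and without PTX_IT replicate 15 the PTX_IT change was −0.90. With Xist in the model the Zeb1 change was −1.95 in NCTD_IT and −1.34 in PTX_IT. By the IP route each treated group overlapped with the control. The MIX_IP tumors (2.35 and 2.24 CPM) were above those of NCTD_IP (1.40 and 1.91 CPM), but with 9 and 8 counts against 5 and 8. MIX_IP replicate 8 and NCTD_IP replicate 6 thus differed only by the scaling to library size. The share of all genes apart between these 2 groups was not computed. The Zeb1 changes were −0.81 in NCTD_IP, −0.34 in PTX_IP and −0.34 in MIX_IP on the log2 scale. Without CONTROL_IP replicate 2, the IP tumor with Xist, they turned to 0.76, 1.23 and 1.23.

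Zeb2 (chromosome 2, 44873644 to 45007407, minus strand), of the differentiated state and also of macrophages, was the most even of the 10 genes, at 65.1 to 148 CPM with an SD within groups of 0.26 on the log2 scale. CONTROL_IT held 87.8, 102, 88.7 and 93.1 CPM, NCTD_IT 117, 139, 89.2 and 134 CPM, and PTX_IT 111, 148 and 95.8 CPM. MIX_IT tumors held 80.9, 106, 81.8 and 65.1 CPM. Most tumors on a single drug were above the controls and most tumors on both drugs below them, yet each treated group overlapped with the control. The log2 fold change was 0.37 (SE 0.19, adjusted p = 0.259) in NCTD_IT, 0.35 (SE 0.20, adjusted p = 0.800) in PTX_IT and −0.16 (SE 0.19, adjusted p = 0.764) in MIX_IT. The single-drug groups are those with Xist, and with Xist in the model their Zeb2 changes turned to −0.39 in NCTD_IT (adjusted p = 0.870) and −0.30 in PTX_IT (adjusted p = 0.975). As Xist nearly follows these groups, that fit cannot tell drug from host sex. The smallest p that an exact permutation test allows is 0.0286 for 4 against 4 tumors and 0.0571 for 3 against 4, and Zeb2 gave 0.0857 for NCTD_IT and 0.114 for PTX_IT, both two-sided. Between treatments, Zeb2 was 0.52 lower on the log2 scale in MIX_IT than in NCTD_IT (95% interval of the change −0.92 to −0.13, adjusted p = 0.803) and 0.50 lower than in PTX_IT (−0.92 to −0.08, adjusted p = 0.982). Zeb2 was the only one of the 8 genes tested at an unadjusted p below 0.05 in those comparisons. They held 6.02% and 3.75% of all genes at that level and called 0.00801% and 0% of 12480 genes. The 1 gene called, in MIX_IT against NCTD_IT, was Ddx3y of the Y chromosome (log2 fold change 6.74). In both comparisons the sex of the host and the treatment cannot be told apart. NCTD_IT vs. PTX_IT called 0% of genes, and 0 of the 8 genes were at an unadjusted p below 0.05 there beside 3.87% of all genes. In the test of any difference among the 4 IT groups Zeb2 was again the only one at that level (adjusted p = 0.345), beside 12.9% of all genes, with 0.0240% called. The genes called there were Ftl1, Ddx3y and Xist. The same test among the 4 IP groups called 0%, with 0 of the 8 genes beside 3.27% of all genes at an unadjusted p below 0.05. In the IP groups Zeb2 ran from 77.5 to 117 CPM, with changes of −0.19 to −0.03 on the log2 scale. Without CONTROL_IP replicate 2 these changes were 0.14 in NCTD_IP, 0.02 in PTX_IP and 0.18 in MIX_IP.

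**Figure D3:**
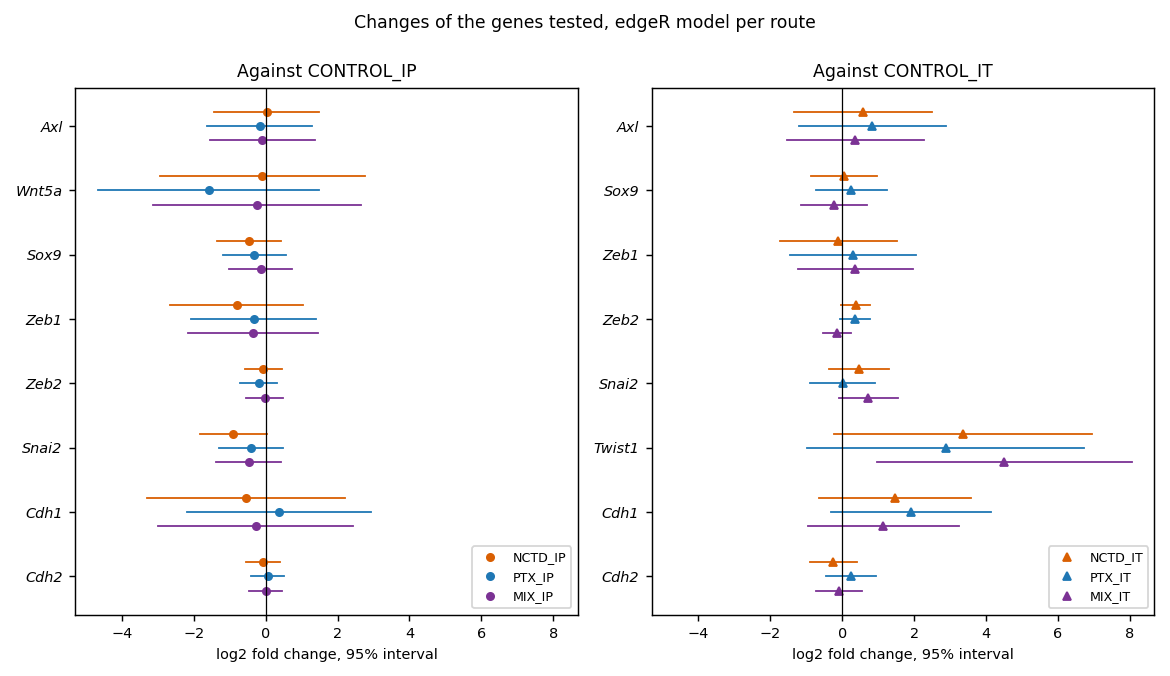
Log2 fold changes against the control of the same route (horizontal axes) for the 8 genes tested in each route, with 95% intervals of the edgeR model as bars, IP at the left and IT at the right. All intervals cover 0 except that of Twist1 in MIX_IT, from 0.96 to 8.05.

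Snai2 (chromosome 16, 14523716 to 14527249, plus strand) encodes SLUG, a repressor of E-cadherin that melanocytes need for their development. In CONTROL_IP it was 7.77 and 10.4 CPM, in NCTD_IP 4.20 and 5.49, in MIX_IP 6.52 and 6.45, and in PTX_IP 5.99 and 7.86 CPM. NCTD_IP and MIX_IP lay below the control without overlap, and the log2 fold changes were −0.90 (SE 0.41) and −0.47 (SE 0.40), both with an adjusted p of 0.999. By the IT route the levels leaned the other way, at 10.9, 11.4, 16.99 and 6.00 CPM in MIX_IT and 11.6, 11.5, 5.88 and 8.53 CPM in NCTD_IT, against 7.47, 5.04, 9.32 and 5.38 CPM in CONTROL_IT and 4.46, 5.16 and 10.8 CPM in PTX_IT. The IT groups overlapped, with log2 fold changes of 0.73 (SE 0.39, adjusted p = 0.447) in MIX_IT and 0.47 (SE 0.39, adjusted p = 0.508) in NCTD_IT. Without MIX_IT replicate 23 the MIX_IT value was 0.46. The change by NCTD in IT minus that in IP was 1.37 on the log2 scale (SE 0.62, adjusted p = 0.443), and Snai2 was the only one of the 9 genes tested at an unadjusted p below 0.05, beside 10.8% of 13395 genes.

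Twist1 (chromosome 12, 34007670 to 34009828, plus strand), a factor of the invasive state that mesenchymal cells of the skin also express, was the least even after Axl. It was 0, 0.657, 0 and 0 CPM in CONTROL_IT, which is 3 counts in all, and 1.91, 4.11, 1.73 and 0.800 CPM in NCTD_IT, or 11, 14, 5 and 3 counts. All NCTD_IT tumors were above all controls in CPM, although the lowest of them, replicate 20, and the highest control, replicate 10, both held 3 counts and differed only by the scaling to library size. Twist1 passed the filter on low counts in the IT model only through treated tumors, as no CONTROL_IT tumor held more than 3 counts. Its fitted p-values by that route thus cannot be read as support for a rise. NCTD_IT had a log2 fold change of 3.36 (SE 1.70, adjusted p = 0.260), and the exact permutation test gave the smallest two-sided p that it allows, 0.0286. Twist1 was the only one of the 10 genes whose groups did not overlap in NCTD_IT, where 16.8% of all genes did not. With Xist added to the model as its log2 CPM, the Twist1 fold change was −0.03, and with the fibroblast marker sum as a covariate it was 1.24 (adjusted p = 0.765). Both covariates separate all NCTD_IT from all CONTROL_IT tumors, so neither fit can tell them from the treatment. Without CONTROL_IT replicate 10 it was 6.20, and without NCTD_IT replicate 18 Twist1 had too few counts to be tested. The fibroblast marker sum was 427 to 1773 CPM in NCTD_IT, above the 118 to 395 CPM of CONTROL_IT, and the endothelial marker sum was also higher (84.7 to 165 CPM against 41.0 to 69.3 CPM).

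In MIX_IT, Twist1 was 0, 1.56, 17.7 and 0 CPM, with 73 counts in replicate 23 and 10 in replicate 22. The log2 fold change of 4.50 (SE 1.67, adjusted p = 0.271) rested on that tumor, and without it Twist1 no longer had enough counts to be tested. PTX_IT tumors held 0.279, 4.19 and 0.257 CPM, again with 1 tumor above the rest (log2 fold change 2.87, SE 1.82, adjusted p = 0.811, and 0.50 without replicate 15). With Xist in the model the PTX_IT change was −0.44. Without CONTROL_IT replicate 10, the only control with a count, the Twist1 change was 7.34 in MIX_IT and 5.71 in PTX_IT. By the IP route Twist1 was 1.57 and 1.12 CPM in MIX_IP against 0.582 and 1.05 CPM in CONTROL_IP, without overlap but with only 3 to 7 counts in each of these tumors. Over the 23 tumors Twist1 followed the fibroblast markers (r = 0.63, rho = 0.44), a relation that fell to r = 0.40 without the 2 tumors farthest from the median of Twist1. With the fibroblast marker sum as a covariate the MIX_IT change in Twist1 was 0.43 (adjusted p = 0.997). That sum was higher in every MIX_IT tumor than in every CONTROL_IT tumor, so this fit cannot tell it from the treatment. The part of fibroblasts in the Twist1 level was not tested otherwise. The genes most like it were Rnf44 (r = 0.86, and 0.27 over the IP tumors) and Ssbp3 (r = 0.83).

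**Figure D4:**
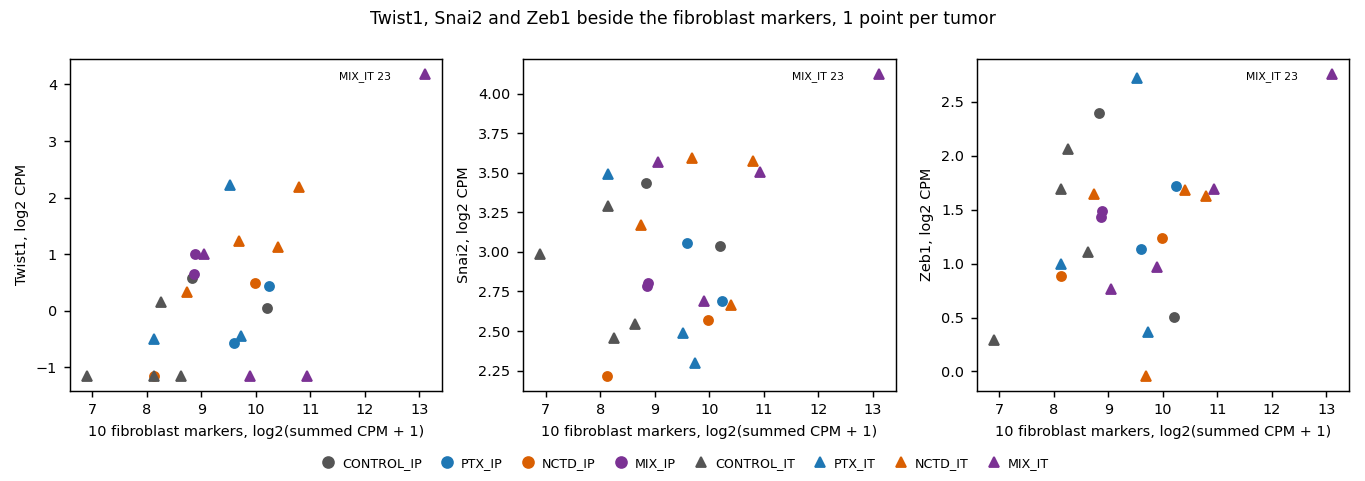
Log2 CPM of Twist1, Snai2 and Zeb1 (vertical axes) against the log2 summed CPM of 10 fibroblast markers, with 1 point per tumor, circles for IP and triangles for IT groups. MIX_IT replicate 23, with 8862 CPM of fibroblast markers, lies alone at the upper right of all 3 panels.

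Cdh1 (chromosome 8, 107329983 to 107396878, plus strand) encodes E-cadherin, which melanocytes use to hold on to keratinocytes. It was between 0.283 and 12.6 CPM, at 1.03, 2.63, 1.51 and 0.283 CPM in CONTROL_IT and 2.23, 12.6 and 1.28 CPM in PTX_IT. In NCTD_IT it was 0.522, 3.23, 1.04 and 10.9 CPM and in MIX_IT 0.428, 2.81, 6.80 and 2.50 CPM. Each treated group held at least 1 tumor above the control range, and all overlapped with the control. The log2 fold changes were 1.90 (SE 1.05, adjusted p = 0.795) in PTX_IT, 1.47 (SE 1.00, adjusted p = 0.408) in NCTD_IT and 1.14 (SE 0.99, adjusted p = 0.666) in MIX_IT. Each rested on its highest tumor, since the Cdh1 change was 0.34 without PTX_IT replicate 15, 0.17 without NCTD_IT replicate 20 and 0.47 without MIX_IT replicate 23. With Xist in the model it was −2.42 in PTX_IT and −3.52 in NCTD_IT, a fit that cannot tell drug from host sex. By the IP route the Cdh1 changes were −0.55 in NCTD_IP, 0.36 in PTX_IP and −0.28 in MIX_IP. Without CONTROL_IP replicate 2 they were 1.01, 1.92 and 1.29. In the IP tumors the highest Cdh1 level, 6.74 CPM in PTX_IP replicate 3, belonged to the tumor with the highest keratinocyte marker sum, 167 CPM against 4.16 to 51.3 CPM in all others. With that sum as a covariate the PTX_IP change was −1.40 (adjusted p = 0.542). PTX_IT replicate 15 and NCTD_IT replicate 20, with the most Cdh1 of all tumors, had keratinocyte sums of only 15.1 and 12.3 CPM. Over the 23 tumors Cdh1 followed both the macrophage markers (r = 0.62, rho = 0.64) and the keratinocyte markers (r = 0.56, rho = 0.55). Without the 2 tumors farthest from the median of Cdh1 the order was reversed, with r of 0.51 and 0.62. For deviations from the group means r was 0.66 and 0.69, so neither list was clearly the closer one. Zeb1 and Cdh1, a repressor and its target, were not opposed over the tumors (r = 0.60, rho = 0.56).

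Cdh2 (chromosome 18, 16721934 to 16942303, minus strand), N-cadherin, which melanoma cells gain when they leave the epidermis, was at 28.3 to 108 CPM in all tumors. CONTROL_IT held 61.5, 63.5, 66.8 and 86.0 CPM, NCTD_IT 60.9, 79.0, 51.5 and 42.9 CPM, PTX_IT 80.8, 58.7 and 108 CPM, and MIX_IT 69.4, 65.6, 98.8 and 28.3 CPM. The groups overlapped, MIX_IT replicate 24 was the lowest and PTX_IT replicate 16 the highest of all tumors. The log2 fold changes were −0.24 (SE 0.31, adjusted p = 0.679) in NCTD_IT, 0.25 (SE 0.33, adjusted p = 0.909) in PTX_IT and −0.09 (SE 0.30, adjusted p = 0.928) in MIX_IT. The Cdh2 change was −0.36 in MIX_IT without replicate 23 and −0.00 in PTX_IT without replicate 16, and with Xist in the model that of NCTD_IT was 0.19. In the IP groups they lay between −0.07 and 0.06 with standard errors of 0.21, the narrowest bounds of any of the genes, with 95% intervals from −0.54 to 0.52. A fold change of Cdh2 above 1 on the log2 scale in either direction was outside all of these IP intervals.

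When groups were ordered by median, 69 of the 70 pairs of neighbours overlapped, the exception being MIX_IP above CONTROL_IP for Twist1. Neighbours in such an order are close by the ordering itself. The share over all genes was not computed, so this count says nothing particular about the 10 genes. Of the 10 genes, 2 did not overlap with the control in NCTD_IP, 1 in PTX_IP and 2 in MIX_IP, beside 34.3%, 31.8% and 35.9% of all genes, and with 2 against 2 tumors no exact test can go below p = 0.333. In PTX_IT and MIX_IT it was 0 of the 10, beside 7.96% and 9.91% of all genes.

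Between the routes, as the mean of the IT minus IP difference over the 4 treatments, none of the 9 genes tested passed the test, while 0.739% of 13395 genes did. Sox9 was 0.59 lower by the IT route on the log2 scale (SE 0.26, adjusted p = 0.289), the only one at an unadjusted p below 0.05, beside 14.4% of all genes. None of the 9 genes passed the test of a difference between the routes in the change by a drug, with 0% of all genes called for NCTD, 0% for PTX and 0% for MIX. At an unadjusted p below 0.05 there were 0 of the 9 genes for PTX beside 5.23% of all genes, and 0 for MIX beside 7.44%. Among 17 genes of the ligands, receptors and sheddases around AXL, NGFR and WNT5A, of which 12 were tested between the routes, 1 passed. This was Ryk, a WNT5A receptor, which was 0.58 higher by the IT route on the log2 scale (adjusted p = 0.0265).

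The genes around these 10 were read from 4 companion lists. Of 16 genes of the melanocytic pole, all tested in the IT tumors, 1 passed in NCTD_IT, and it fell, where 1.37% of all genes passed. Mitf, the master regulator of pigment cells, was 429, 339.5, 596 and 441 CPM in NCTD_IT against 752, 697, 814 and 1023 CPM in CONTROL_IT. The groups did not overlap, with a log2 fold change of −0.86 (SE 0.18, adjusted p = 0.0363). In MIX_IT the Mitf level was 330.1, 381, 339 and 361 CPM, with a log2 fold change of −1.22 (SE 0.18) that did not pass (adjusted p = 0.0603) but passed with all 23 tumors in the model (0.0127), with Xist in it (0.0291) and with DESeq2 (5.07e-09), though not with only these 2 groups in the model (0.108), and in PTX_IT it was −0.46 (SE 0.20, adjusted p = 0.785). By the IP route Mitf changed by −0.70 in NCTD_IP, −0.61 in PTX_IP and −0.04 in MIX_IP on the log2 scale, with adjusted p of 0.906 or more. Mc1r, the melanocortin receptor upstream of Mitf, was among the 2 genes of the list with the smallest p in MIX_IT (log2 fold change 0.64, adjusted p = 0.165) and in PTX_IT (0.44, adjusted p = 0.785).

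Of 18 genes of the invasive pole besides the 10, 14 were tested and 1 passed in NCTD_IT, and it rose. Tnc, tenascin C of the extracellular matrix, which fibroblasts also secrete, was 40.0, 88.4, 80.6 and 18.7 CPM in NCTD_IT against 3.86, 9.64, 6.30 and 9.90 CPM in CONTROL_IT, a log2 fold change of 2.93 (SE 0.57, adjusted p = 0.0301). In MIX_IT it was 37.9, 15.1, 82.8 and 28.6 CPM, all above the controls, with a log2 fold change of 2.45 (SE 0.57, adjusted p = 0.122) that was 1.85 without replicate 23, and in PTX_IT it was 1.38 (SE 0.60, adjusted p = 0.785). With Xist added to the model neither call in NCTD_IT was kept, Mitf at −0.94 (adjusted p = 0.827) and Tnc at 1.42 (adjusted p = 0.853). Xist separates all NCTD_IT from all CONTROL_IT tumors, so the loss of these calls cannot tell drug from host sex. Leaving out a tumor ended the Mitf call in 6 of 8 fits (adjusted p 0.0588 to 0.145) and the Tnc call in 6 of 8 (0.0501 to 0.117), all but those without CONTROL_IT replicate 10 and, for Mitf, NCTD_IT replicate 19 or, for Tnc, NCTD_IT replicate 20. The 8 fibroblast markers tested had a median log2 fold change of 1.97 in NCTD_IT and 3.14 in MIX_IT, with 0 of them called, and their part in the level of Tnc was not tested. Of the endothelial markers 1 of 5 tested, Emcn, was called in NCTD_IT (log2 fold change 1.29, adjusted p = 0.0414). All 5 were higher there and at an unadjusted p below 0.05, as were 3 of the 5 in MIX_IT, beside the same shares of all genes. In the 3 IT comparisons with control, 0 of the keratinocyte, macrophage, T and NK cell, Schwann cell, skeletal muscle and adipocyte markers were called.

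**Figure D5:**
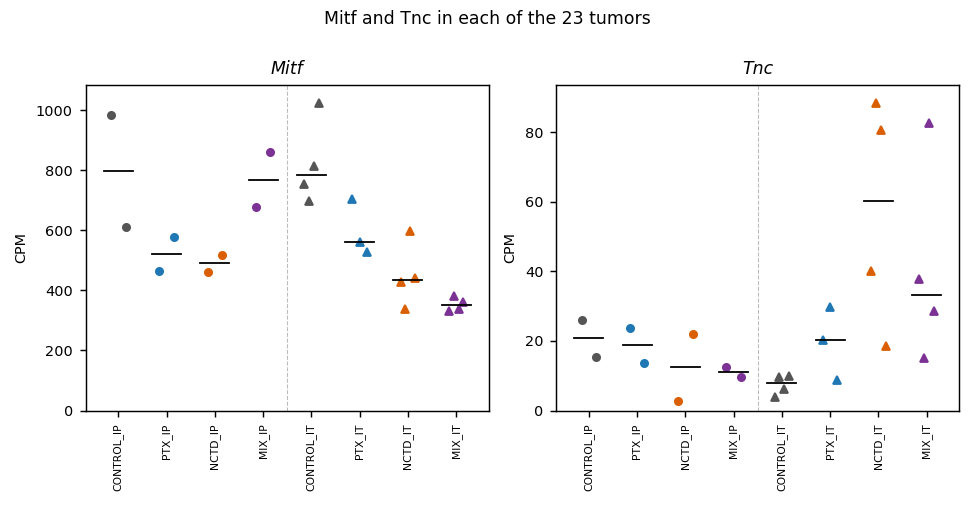
CPM of Mitf (left) and Tnc (right) in the 8 groups (vertical axes, linear), with 1 point per tumor, circles for IP and triangles for IT groups, and a black line at the group median. Mitf in NCTD_IT and MIX_IT lies below all CONTROL_IT tumors and all Tnc values there lie above them.

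Only 8 of 19 partner genes of EMT had enough counts to be tested by the IT route, and 0 passed in the 3 comparisons. Fn1 (fibronectin) and Cdh11 (the cadherin of mesenchymal cells) had the smallest p of them in NCTD_IT, with log2 fold changes of 1.25 (adjusted p = 0.121) and 1.95 (adjusted p = 0.237), and in MIX_IT, with 1.40 (adjusted p = 0.197) and 2.48 (adjusted p = 0.274). Without MIX_IT replicate 23 the Cdh11 value was 1.18. Ctnnd1 and Ctnnb1, the catenins that bind cadherins, came first in PTX_IT, with 1.08 (adjusted p = 0.790) and 0.51 (adjusted p = 0.858). Of the 10 ligands, receptors and sheddases tested, 0 passed by the IT route. Adam10, a protease that sheds AXL and other receptors, had a log2 fold change of 0.60 in NCTD_IT (adjusted p = 0.0604) and 0.58 in MIX_IT (adjusted p = 0.175). Fzd5, a WNT5A receptor, had 1.12 in NCTD_IT (adjusted p = 0.0937) and 1.04 in MIX_IT (adjusted p = 0.242). In PTX_IT the smallest p were those of Pros1, a ligand of AXL's relatives, and Fzd3, with log2 fold changes of 0.61 and 1.18 (adjusted p of 0.795 and 0.797). In PTX_IT and MIX_IT the invasive pole also named Nes (−1.40, adjusted p = 0.795) and Tead4 (1.24, adjusted p = 0.3897).

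The remaining genes most like each of the 10 over the 23 tumors were followed less closely. Zeb2 was most like Tmem30a (r = 0.84) and Tcf7l2 (r = 0.83), Cdh1 like Nfatc1 and Sh3bp2 (both r = 0.81), and Cdh2 like Creb3l2 (r = 0.78) and Erg (r = 0.75). Snai2 was most like Casd1 and Tln2 (both r = 0.76), Zeb1 like Gm45220 (r = 0.76) and Rcor3 (r = 0.72), and Wnt5a like Layn (r = 0.75) and Dennd10 (r = 0.69). Without the 2 tumors farthest from the median of the gene, these values ran from 0.54 to 0.87.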

How the data were processed

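Libraries of the 3′ end of polyadenylated RNA were made from 23 tumors. Per the submitters' processing notes, FastQC, Trimmomatic, STAR 2.7.11b and GRCm39 were used, and the authors deposited whole-number counts of reads per gene without normalization. The strand setting, the handling of reads that align to several places and the use of molecular identifiers are not given in the sources used here, so reads of overlapping or antisense genes cannot be separated. All columns of tumors were used, and groups came from the labels.

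Counts were analysed in R 4.3.3. Genes were kept by filterByExpr of edgeR 4.0.16 (minimum count 10, minimum total 15), scaled by TMM and tested with the quasi-likelihood test in 1 model per route, or of all 23 tumors between routes, with Benjamini-Hochberg adjustment over all genes tested and a call at an adjusted p below 0.05. Log2 CPM used a prior count of 2. Exact permutation tests were two-sided. Intervals are at 95%. Replicate tumors differed beyond sampling noise, and each was counted once (chi-square per degree of freedom 8.09 to 64.6 over 25 pairs). The model was tested on simulated data with known changes. Nothing says whether the tumors of a group came from separate cages or litters, and p-values measure the spread between these tumors.

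The 10 genes, the companion lists and the marker lists were chosen with earlier results of these data known. All 10 genes were named, and of the companion lists each gene called against the control of its route, or else the 2 with the smallest p by the IT route, with Mitf always. Per gene, the 2 genes with the highest Pearson correlation of log2 CPM were named. Alternatives were DESeq2 1.42.0, RLE size factors, no filter on low counts, other sets of tumors in the model, Xist, fibroblast or keratinocyte covariates, and leaving out each tumor.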

Additional observations from a re-analysis of the deposited data

Results flagged for a closer look

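In each IT group of 4 tumors the gap of the highest or lowest tumor to its nearest neighbour was divided by the range of the group, for each of the 10 genes. Of 30 groups, 5 had a tumor whose gap was above the 95% critical value. Chance alone gives this in about 1 of 20 groups, but in 3 of the 5 groups the tumor held 1 to 3 counts and all others were at 0, where the ratio is 1 whatever the count. That rate does not apply to such groups, and the number of groups is no sign of an excess. Twist1 in MIX_IT replicate 23 (17.7 CPM) had a ratio of 0.912, and Ngfr in the same tumor (0.728 CPM, 3 counts) a ratio of 1, all other MIX_IT tumors being at 0. Twist1 in CONTROL_IT replicate 10 (0.657 CPM, 3 counts) and Ngfr in CONTROL_IT replicate 12 (0.283 CPM, 1 count) also had a ratio of 1 over tumors at 0. Zeb1 in NCTD_IT replicate 17 lay below its group, at 0.522 CPM, with a ratio of 0.945.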

How the results depend on the processing

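DESeq2, RLE size factors, no filter, other tumors in the model, covariates and leaving out a tumor were tried. Without the filter on low counts, 1 of the 10 genes was called in NCTD_IT and 1 in MIX_IT, both times Twist1 (log2 fold change 3.35, adjusted p = 0.0460, and 4.47, adjusted p = 0.00522). Both calls rest on few counts. Among the controls only CONTROL_IT replicate 10 had any, 3 counts, and MIX_IT replicate 23 held 73 against 0 to 10 in the other MIX_IT tumors. Calls over all genes rose in the same fits, as given below, and their share of the genes tested was not computed. In no other alternative was any of the 10 genes called, and leaving out each tumor gave 0 to 0 calls. Of 323 alternative values of their 48 fold changes, 33 had the other sign and 26 moved by more than the SD between tumors; with a tumor left out it was 50 and 21 of 278.

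Over all genes, calls rose without the filter to 71 in NCTD_IP, 71 in PTX_IP, 51 in MIX_IP, 1190 in NCTD_IT, 222 in PTX_IT and 364 in MIX_IT. DESeq2 called 9, 4, 8, 1378, 14 and 228 genes in the same order, and 411 between the routes. With only the 2 groups in the model there were 2 calls in NCTD_IP, 2 in MIX_IP and 946 in NCTD_IT, and with all 23 tumors 777 in NCTD_IT and 9 in MIX_IT. With Xist as a covariate NCTD_IT fell from 171 to 0 and MIX_IT rose to 22. Since Xist separates NCTD_IT from CONTROL_IT, the fall in NCTD_IT cannot tell drug from host sex. Without 1 tumor the counts ran from 0 to 3 in NCTD_IP, 0 to 1 in PTX_IP, 0 to 1 in MIX_IP, 0 (CONTROL_IT replicates 11 and 12, NCTD_IT replicate 18) to 191 (CONTROL_IT replicate 10) in NCTD_IT, with 1 without CONTROL_IT replicate 9 or NCTD_IT replicate 17 and 71 without NCTD_IT replicate 19, 0 to 0 in PTX_IT and 0 to 3 in MIX_IT. The cause was not tested. No paired analysis was possible because no replicate number is shared between groups.

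Depth limits Ngfr, Twist1, Wnt5a, Zeb1 and Cdh1, which had few counts in most tumors, and the IP groups hold 2 tumors each.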
